A study of Mus musculus with 22 samples.

Results

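The fibrillar collagen chains described here are the products of 7 genes, Col1a1, Col1a2, Col3a1, Col5a1, Col5a2, Col5a3 and Col11a1, which make types I, III, V and XI collagen. They were taken by name from a table of 55414 genes, and the family was chosen with earlier results of these data known. All 7 were found, and all 7 passed the filter on low counts that left 17554 genes for testing. RNA was sequenced from sorted dorsal skin fibroblasts of mice that had all been operated on. EXP mice received a hydrogel expander, held by stitches under the skin near the neck, and CTRL mice had the operation without it. CTRL had 4, 3 and 4 libraries on days 1, 2 and 4, and EXP had 5, 3 and 3. The labels give no genotype, strain, sex or age, and do not say whether a library came from a single mouse or from pooled mice. Live cells that were positive for CD34 and PDGFRα and negative for CD31, CD45, CD117 and EpCAM were kept, so the results describe that gate. P-values measure the spread between these libraries, whose source animals the labels do not number.

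Fibrillar collagens are long triple helices that are secreted as procollagens, trimmed at both ends and packed side by side into the fibrils that let skin bear tension. Type I collagen, a trimer of the Col1a1 and Col1a2 chains, is the main component of dermal fibrils, and type III, a trimer of the Col3a1 chain, is mixed into them. Types V and XI are minor components that help to start fibrils and limit their width. Inherited defects of Col5a1 and Col5a2 are a known cause of fragile, stretchable skin.

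The sequence before the gene start is shown first. Col11a1 is among the genes shown and was not called lower on day 1. Its log2 fold change (-1.23, SE 0.57, adjusted p 0.111, edgeR) was within the range of the called chains. It is therefore no unchanged chain to set the others against. RefSeq promoter sequence of the GRCm38.p6 build was matched for 5 of the 7 genes, and the 250 bases before the start are printed for all 5. Capitals mark the letters CCAAT (the CCAAT box), TATAAA (the TATA box) and GGGCGG (the GC box), searched on both strands, and no marked match overlaps another. The windows are chr6:4505368-4505617 on the plus strand for Col1a2, chr1:45311288-45311537 on the plus strand for Col3a1, chr2:27886175-27886424 on the plus strand for Col5a1, chr9:20815068-20815317 on the minus strand for Col5a3 and chr3:114030290-114030539 on the plus strand for Col11a1.
Col1a2: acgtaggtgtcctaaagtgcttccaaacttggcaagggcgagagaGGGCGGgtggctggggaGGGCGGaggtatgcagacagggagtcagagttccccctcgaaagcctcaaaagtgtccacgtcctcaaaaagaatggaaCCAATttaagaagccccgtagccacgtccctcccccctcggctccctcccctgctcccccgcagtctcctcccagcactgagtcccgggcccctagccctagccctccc
Col3a1: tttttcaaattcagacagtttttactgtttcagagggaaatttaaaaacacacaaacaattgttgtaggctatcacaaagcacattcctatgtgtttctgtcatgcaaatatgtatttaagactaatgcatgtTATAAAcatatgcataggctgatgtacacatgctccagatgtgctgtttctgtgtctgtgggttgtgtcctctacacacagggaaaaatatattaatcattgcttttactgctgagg
Col5a1: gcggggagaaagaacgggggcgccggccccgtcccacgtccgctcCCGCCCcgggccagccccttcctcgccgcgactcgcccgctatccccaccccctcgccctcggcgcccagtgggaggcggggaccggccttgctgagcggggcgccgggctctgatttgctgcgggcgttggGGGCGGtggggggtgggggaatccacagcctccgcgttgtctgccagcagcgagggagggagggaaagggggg
Col5a3: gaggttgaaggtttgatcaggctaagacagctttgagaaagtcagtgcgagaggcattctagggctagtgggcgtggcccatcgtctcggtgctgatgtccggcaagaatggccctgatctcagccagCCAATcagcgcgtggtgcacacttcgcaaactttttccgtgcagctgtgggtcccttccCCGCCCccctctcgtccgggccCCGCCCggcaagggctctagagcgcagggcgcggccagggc
Col11a1: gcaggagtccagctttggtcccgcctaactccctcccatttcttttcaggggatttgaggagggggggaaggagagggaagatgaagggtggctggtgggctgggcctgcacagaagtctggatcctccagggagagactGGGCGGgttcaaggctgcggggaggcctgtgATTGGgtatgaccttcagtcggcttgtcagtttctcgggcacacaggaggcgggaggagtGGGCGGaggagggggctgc

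The 5 windows differed in their letters. That of Col1a2 held a CCAAT box that ended 104 bases before the start and 2 GC boxes. That of Col3a1 had a GC content of 35.2%, a TATA box that ended 111 bases before the start, and neither of the other marked motifs. That of Col5a1 had a GC content of 76.4% and 2 GC boxes. That of Col5a3 held a CCAAT box that ended 117 bases before the start and 2 GC boxes. That of Col11a1 also held a CCAAT box, which ended 74 bases before the start, and 2 GC boxes. Among 32851 promoters of the same length, 33.8% held a CCAAT box, 12.4% a TATA box and 32.7% a GC box, and the median GC content was 52.4%. The letters CAGAC, the core of a Smad-binding element, were also searched on both strands. They occurred once in the Col1a2, Col5a1 and Col11a1 windows, 2 times in that of Col3a1 and not in that of Col5a3, against 42.2% of all promoters with at least 1. A match describes the letters only, and a missing match says only that the letters are not in the window.

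Library totals ran from 21461294 to 30210204 counts, so 3 counts, taken as the detection floor, were 0.0805 to 0.157 CPM (counts scaled to a common total). These limits cover counting error alone, as the labels name no molecular identifiers and reads may be copies of 1 molecule. CPM are counts scaled to the library total times its TMM factor, a scaling factor that equalizes the typical gene, and are printed to 4 significant digits. Markers of the sort were present in every library: Pdgfra was at 227 to 1022 CPM and Cd34 at 216 to 2346 CPM. Markers of excluded cells were low, with Epcam at most 2.09 CPM, Pecam1 at most 3.68 CPM and Kit at most 0.698 CPM, and Ptprc at 0 in 16 of the 22 libraries. The share of mitochondrially encoded counts was 0.818 to 0.925% in CTRL and 1.09 to 1.83% in EXP on day 1, 0.617 to 1.10% and 1.17 to 1.40% on day 2, and 0.677 to 1.02% and 0.949 to 1.26% on day 4. The libraries were divided by the mean log2 CPM of 192 genes that follow Rnf10 (correlation over 0.9 after group means were removed). Group means were not removed from that mean level, so differences between groups enter the division. The high side held 5 libraries of day 1 (3 of them CTRL) and 2 of day 4 (both CTRL), and the low side held the remaining libraries. The part of mitochondrial share and of this division in the results below was not tested, and values within the division stand beside the results where they differ.

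The chains took up a large part of all reads. In CTRL they accounted for 23.3 ± 2.19% of counts on day 1 (SD, n = 4), 29.1 ± 1.92% on day 2 (n = 3) and 26.5 ± 3.63% on day 4 (n = 4). In EXP the shares were 12.5 ± 2.34% (n = 5), 12.6 ± 4.78% (n = 3) and 17.0 ± 7.15% (n = 3). CTRL and EXP libraries did not overlap on day 1 (20.2 to 25.0% against 10.2 to 16.0%) or on day 2 (27.4 to 31.1% against 7.22 to 16.4%). On day 4 they did overlap, because EXP replicate 3 had 24.6%, above the 21.03% of CTRL replicate 2, while EXP replicates 1 and 2 had 10.5% and 15.9%. Without EXP replicate 3, the day 4 difference of the means went from -9.49 to -13.3 percentage points. With each of the 7 day 4 libraries left out in turn, it ran from -13.3 to -6.23 percentage points. In sorted bulk RNA, fewer cells that make collagen and less collagen RNA in each cell cannot be told apart.

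**Figure D1:**
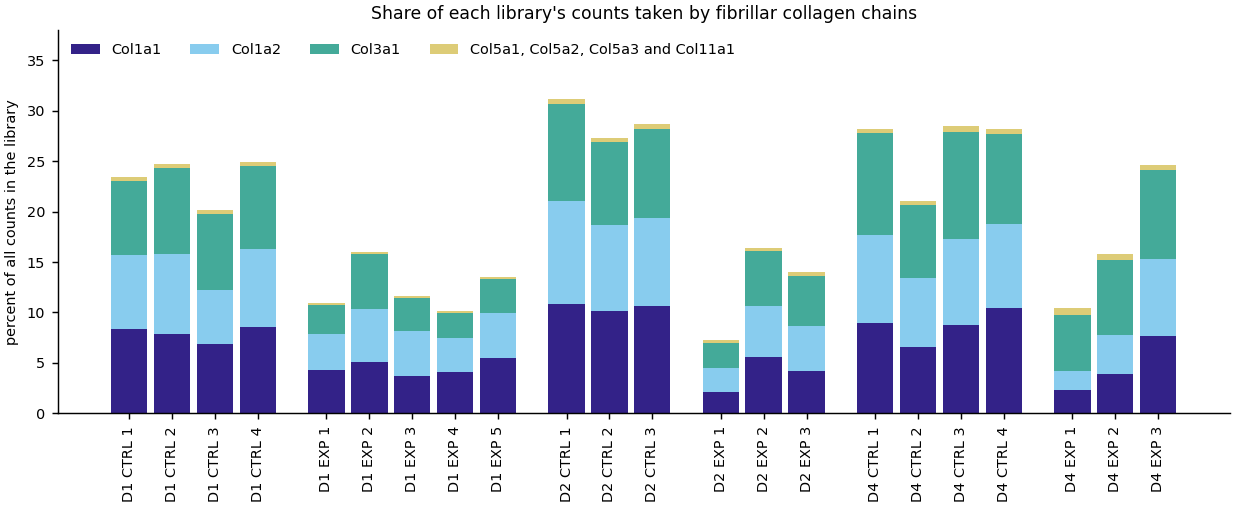
Percent of all counts (vertical axis) in each of the 22 libraries (horizontal axis, named by day, arm and replicate) that came from fibrillar collagen chains, stacked by chain. Col1a1, Col1a2 and Col3a1 make up nearly all of each bar, and the day 1 and day 2 EXP bars, at 7.22 to 16.4%, end below all CTRL bars.

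Per kilobase of transcript, the chains formed 4 tiers. On day 1 in CTRL, Col3a1 was at 14540 ± 1779, Col1a2 at 13700 ± 2830 and Col1a1 at 13650 ± 1747 CPM per kilobase (SD, n = 4), and these 3 did not differ beyond their spread. Next came Col5a2 at 316 ± 30.1 and Col5a1 at 273 ± 17.4 CPM per kilobase, whose libraries overlapped. Col5a3 followed at 42.8 ± 13.6 and Col11a1 at 1.14 ± 0.508 CPM per kilobase, each below all libraries of the chain above it. The order of the tiers was the same in all 6 groups. Within the second tier, Col5a1 and Col5a2 separated in EXP on day 1, at 71.7 to 110 and 143 to 166 CPM per kilobase, and on day 2, at 64.4 to 155 and 224 to 278. On day 4 their EXP libraries overlapped again. The ratio of Col1a1 to Col1a2 per kilobase was close to 1 in every group, with means from 0.882 to 1.04.

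**Figure D2:**
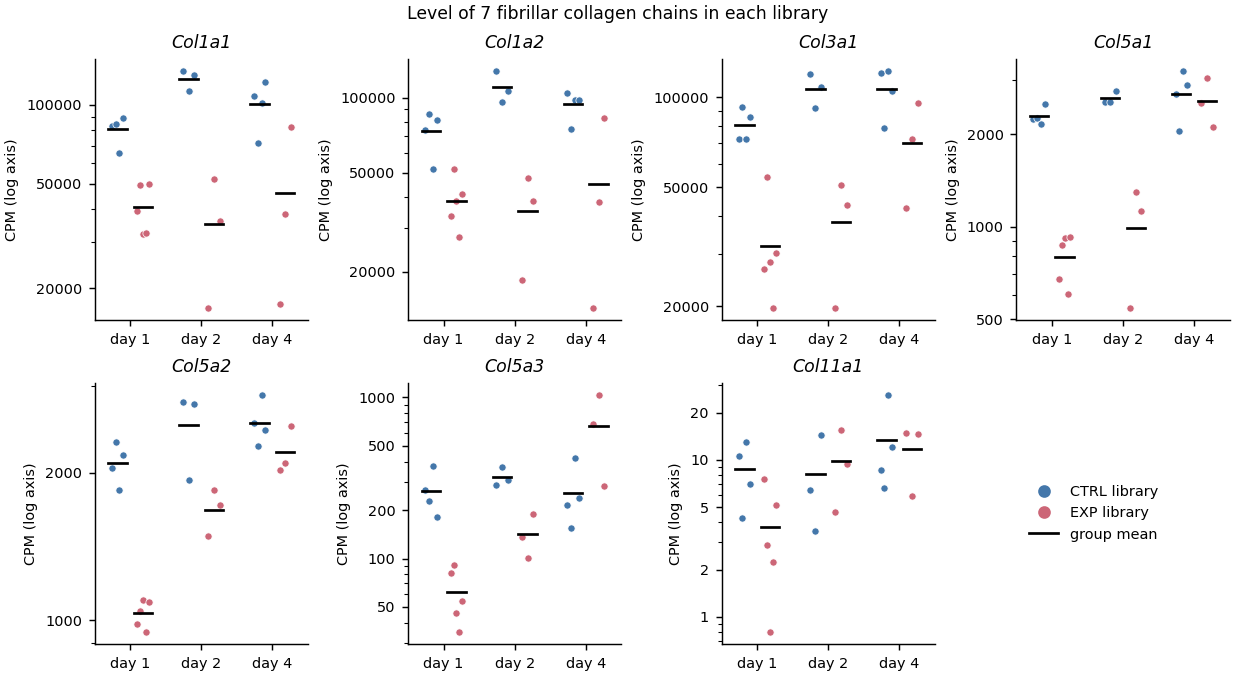
Level of each chain in CPM on a log axis (vertical) in CTRL and EXP libraries on days 1, 2 and 4 (horizontal), with 1 dot per library and a bar at the group mean. On days 1 and 2 the EXP dots of 6 chains lie below all CTRL dots, and on day 4 the dots of all 7 chains overlap.

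On day 1, 6 of the 7 chains were lower in EXP than in CTRL at an adjusted p under 0.05 (edgeR quasi-likelihood test, Benjamini-Hochberg over 17554 genes), where 14.7% of all tested genes were called lower. The median log2 fold change of the 7 chains was -1.23, against 0.02 over all tested genes. For the same 6 chains every EXP library was below every CTRL library, which held for 12.2% of genes. Col11a1 (-1.23, adjusted p 0.111) was the exception. On day 2, 5 chains were called lower, where 5.71% of genes were. Without EXP replicate 1 of day 2, which had the lowest share of chain counts, 1 chain (Col5a1) was called lower. With all libraries, again 6 chains had EXP below all CTRL libraries, against 18.4% of genes. On day 4, Col1a1 was called lower (9.66% of genes were) and Col5a3 higher (12.8% of genes were), and the libraries of all 7 chains overlapped.

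**Figure D3:**
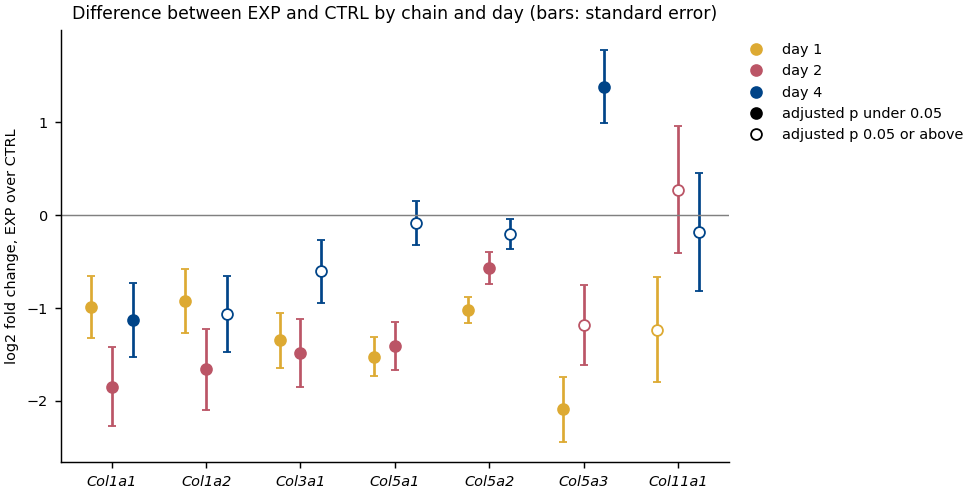
Log2 fold change of EXP over CTRL (vertical axis) for each chain (horizontal axis) on days 1, 2 and 4, with bars of 1 standard error (derived from the test statistic) and filled points for an adjusted p under 0.05. The type V chains move upward from day 1 to day 4, from -2.09 to 1.38 for Col5a3, while Col1a1 is at -0.99 on day 1 and -1.13 on day 4.

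Among the type I chains, Col1a1 was in CTRL at 83380, 84920, 65880 and 89490 CPM on day 1, and in EXP at 39370, 49740, 32080, 32630 and 49930 CPM. The highest EXP library was thus below the lowest CTRL library, and the log2 fold change was -0.99 (SE 0.34, adjusted p 0.0319, edgeR). The call was near the threshold: leaving out any 1 of 6 of the 9 day 1 libraries (CTRL replicates 1, 2 and 4 and EXP replicates 1, 3 and 4) ended it, with adjusted p up to 0.0714, and among the high-side libraries the value was -0.82 (adjusted p 0.0581). On day 2 the CTRL libraries were at 134800, 113100 and 130500 CPM and the EXP libraries at 16750, 52170 and 36230 CPM. EXP replicate 1 was the lowest of all 22, and the fold change was -1.85 (SE 0.42, adjusted p 0.00693, edgeR). Without that library it was -1.51 (adjusted p 0.0511).

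On day 4 the Col1a1 libraries spread widely. CTRL was at 107800, 71530, 101500 and 122600 CPM, and EXP at 17400, 38250 and 82710 CPM. EXP replicate 3 lay within the CTRL range and the other EXP libraries below it. The fold change was -1.13 (SE 0.40, adjusted p 0.0450, edgeR). It was -1.83 (adjusted p 0.00207) without EXP replicate 3 and -0.74 (adjusted p 0.201) without EXP replicate 1, and the call also ended without EXP replicate 2 or without CTRL replicate 1, 3 or 4. Among low-side libraries it was -0.96 (adjusted p 0.287).

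Col1a2, the partner chain of type I collagen, was in CTRL at 74160, 86100, 51810 and 81080 CPM on day 1 and in EXP at 33590, 51800, 38530, 27660 and 41170 CPM. The groups nearly met, at CTRL replicate 3 and EXP replicate 2, without overlap. The fold change of -0.93 (SE 0.35) had an adjusted p of 0.0495 in edgeR, and it lost the threshold when 7 of the 9 day 1 libraries were left out in turn, all but CTRL replicate 3 and EXP replicate 2. It also lost it among high-side libraries (-0.73, adjusted p 0.127) and with the division as a covariate (-0.90, adjusted p 0.0690). On day 2 CTRL was at 128100, 96260 and 106700 CPM and EXP at 18510, 47750 and 38630 CPM. The groups were well apart, and the fold change was -1.66 (SE 0.43, adjusted p 0.0151, edgeR), or -1.35 (adjusted p 0.0951) without EXP replicate 1. On day 4 the threshold was missed (-1.06, SE 0.41, adjusted p 0.0634), with CTRL at 104800, 74990, 98150 and 98340 CPM and EXP at 14270, 38080 and 82710 CPM. Without EXP replicate 3 it did pass (-1.82, adjusted p 0.00260). With each of the 7 day 4 libraries left out in turn, the fold change ran from -1.82 to -0.64.

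Col3a1, the single chain of type III collagen, which is abundant in young and healing skin, was in CTRL at 72690, 92560, 72680 and 85690 CPM on day 1 and in EXP at 26760, 54000, 28080, 19780 and 30250 CPM. EXP replicate 2 stood above the other 4 EXP libraries and still below all CTRL libraries. The fold change was -1.35 (SE 0.29, adjusted p 0.00188, edgeR). Among high-side libraries, which include EXP replicate 2, it was -0.98 (adjusted p 0.0695). On day 2 CTRL was at 119800, 92230 and 108100 CPM and EXP at 19690, 51030 and 43750 CPM. The groups did not overlap and the fold change was -1.48 (SE 0.37, adjusted p 0.0107), which became -1.17 (adjusted p 0.0734) without EXP replicate 1.

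On day 4 Col3a1 no longer separated the groups. CTRL was at 120700, 79090, 122200 and 104700 CPM and EXP at 42550, 72590 and 95340 CPM, and the log2 fold change was -0.60 (SE 0.34, adjusted p 0.207, edgeR). Within EXP, Col3a1 rose from day 1 to day 4 by 1.14 on the log2 scale (SE 0.31, adjusted p 0.0150), where 19.0% of genes were called in that contrast in either direction. The joint test over the 3 EXP days gave an adjusted p of 0.0374. Col1a1 (0.18, adjusted p 0.785) and Col1a2 (0.22, adjusted p 0.733) did not pass the day 4 against day 1 contrast in EXP. In the GENCODE M21 annotation, 141 exon bases of Col3a1 are shared with Gm47302 on the same strand, so the split of reads between the genes is uncertain there.

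Among the type V chains, Col5a1, the chain present in the common form of type V collagen, was in CTRL at 2240, 2266, 2159 and 2500 CPM on day 1 and in EXP at 673.9, 869.1, 917.7, 603.1 and 921.8 CPM. CTRL libraries lay close together and every EXP library was far below them. The fold change was -1.52 (SE 0.21, adjusted p 3.44e-05, edgeR). On day 2 CTRL was at 2544, 2546 and 2761 CPM and EXP at 541.2, 1299 and 1123 CPM, again without overlap, a change of -1.40 (SE 0.26, adjusted p 0.00144). Both calls held in all alternatives computed, 22 for day 1 and 19 for day 2.

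By day 4 Col5a1 in EXP was back among the CTRL libraries. CTRL was at 2709, 2043, 3215 and 2886 CPM and EXP at 2523, 3047 and 2113 CPM, and the log2 fold change was -0.08 (SE 0.24, adjusted p 0.832, edgeR). Within EXP the chain rose by 1.68 from day 1 to day 4 (SE 0.22, adjusted p 6.06e-05) and by 1.37 from day 2 to day 4 (SE 0.26, adjusted p 0.0254). Only 0.387% of genes were called in the day 4 against day 2 contrast. The difference of the EXP effect between day 4 and day 1 was 1.44 (SE 0.31, adjusted p 0.00620), where 13.3% of genes were called. Between day 4 and day 2 that difference was 1.32 (SE 0.35, adjusted p 0.429) and did not pass. In M21, 212 exon bases of Col5a1 are shared with 2810430I11Rik and Gm13372 on the opposite strand, and whether the counting used strand is not given in the sources used here.

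Col5a2, the partner of Col5a1 in the trimer, had the smallest standard error of the 7 chains on day 1. CTRL was at 2045, 2312, 1844 and 2175 CPM and EXP at 983.6, 1046, 1098, 945.4 and 1087 CPM, with a gap between the groups larger than the range of either. The fold change was -1.02 (SE 0.14, adjusted p 3.53e-05, edgeR), and the call held in all 22 alternatives. On day 2 CTRL was at 2794, 1933 and 2766 CPM and EXP at 1485, 1843 and 1716 CPM. The highest EXP library came close to CTRL replicate 2, and the fold change was -0.57 (SE 0.17, adjusted p 0.0308). That call ended when any of CTRL replicates 1 and 3 and EXP replicates 1 and 3 was left out, with adjusted p up to 0.160. It also ended in the fit of low-side libraries (-0.57, adjusted p 0.0817). That fit keeps all day 2 libraries and drops only libraries of other days, so it does not bear on the division within day 2.

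On day 4 Col5a2 was in CTRL at 2526, 2263, 2888 and 2448 CPM and in EXP at 2022, 2091 and 2486 CPM, which overlapped, with a change of -0.20 (SE 0.16, adjusted p 0.381, edgeR). Within EXP it rose by 0.70 from day 1 to day 2 (SE 0.15, adjusted p 0.0131), where 2.63% of genes were called, and by 1.09 from day 1 to day 4 (SE 0.15, adjusted p 7.83e-05). It was the only 1 of the 7 chains called in the day 2 against day 1 contrast within EXP.

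Col5a3, a less abundant chain that can join Col5a1 and Col5a2 in a type V trimer, had the largest log2 fold changes of the 7 chains on days 1 and 4, in opposite directions. On day 1 CTRL was at 266.2, 226.1, 375.2 and 180.8 CPM and EXP at 81.01, 90.84, 46.17, 34.94 and 54.61 CPM. Every EXP library was below every CTRL library, and the fold change was -2.09 (SE 0.35, adjusted p 2.55e-04, edgeR). On day 2 CTRL was at 287.3, 369.3 and 308.6 CPM and EXP at 135.9, 100.9 and 188.4 CPM. These did not overlap, and the change (-1.18, SE 0.43, adjusted p 0.0729) missed the threshold. It passed with DESeq2 (-1.20, adjusted p 0.0338), limma voom (-1.06, adjusted p 0.0188), a fit of the day 2 libraries alone (adjusted p 0.00668) and the division as a covariate (adjusted p 0.0245).

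On day 4 the direction was the opposite. Col5a3 was in CTRL at 215.2, 154.0, 419.3 and 237.1 CPM and in EXP at 682.9, 1042 and 282.3 CPM. EXP replicates 1 and 2 were above all CTRL libraries and EXP replicate 3 was among them. The fold change was 1.38 (SE 0.40, adjusted p 0.0177, edgeR), 1.76 (adjusted p 0.00225) without EXP replicate 3, 0.88 (adjusted p 0.164) without EXP replicate 2 and 1.37 (adjusted p 0.0596) without EXP replicate 1. A fit of the day 4 libraries alone gave 1.36 (adjusted p 0.1002). Within EXP the chain rose by 3.44 from day 1 to day 4 (SE 0.38, adjusted p 1.76e-05) and by 2.24 from day 2 to day 4 (SE 0.44, adjusted p 0.0310). The difference of the EXP effect between day 4 and day 2 (2.57, SE 0.59, adjusted p 0.258) did not pass. The mean level of Col5a3 in EXP ranked 2210 of 17554 genes on day 1, 863 on day 2 and 165 on day 4, while its rank in CTRL stayed between 386 and 520.

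Col11a1, a chain of type XI collagen that is best known from cartilage, had the fewest counts of the 7 chains, 22 to 624 per library. On day 1 CTRL was at 10.63, 4.24, 13.06 and 7.01 CPM and EXP at 7.51, 2.87, 0.799, 2.23 and 5.18 CPM, which overlapped. The change of -1.23 (SE 0.57, adjusted p 0.111, edgeR) passed without EXP replicate 1 (-1.64, adjusted p 0.0431). On days 2 and 4 the changes were 0.27 (SE 0.69, adjusted p 0.839) and -0.18 (SE 0.64, adjusted p 0.867). Day 2 libraries ran from 3.50 to 14.5 CPM in CTRL and from 4.65 to 15.6 CPM in EXP, and day 4 libraries from 6.65 to 26.1 and from 5.90 to 14.8 CPM. Cartilage markers were low, with Matn1 at 0 in all 22 libraries, Col9a1 at 0 in 20 and Acan at most 1.16 CPM, while Sox9 reached 58.2 CPM.

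The 3 type V chains had an EXP effect that changed with the day. The joint test of its differences between days gave an adjusted p of 0.0128 for Col5a1, 0.0423 for Col5a2 and 0.00167 for Col5a3 (edgeR), where 8.82% of genes were called. For Col1a1, Col1a2, Col3a1 and Col11a1 the adjusted p was 0.499, 0.620, 0.374 and 0.457, and a missed threshold does not show that their effect was constant. The Col5a2 call ended for 18 of the 22 libraries when they were left out in turn, and that of Col5a1 when EXP replicate 2 of day 4 was left out (adjusted p 0.0536). In CTRL the adjusted p of the chains' change over the days ran from 0.513 to 0.860, and 0.291% of genes were called there (14.2% at an unadjusted p under 0.05). In EXP 4 chains changed over the days (Col3a1, Col5a1, Col5a2 and Col5a3), against 14.3% of genes.

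Ratios between chains within a library need no scaling and were compared with an exact permutation test, two-sided, with labels permuted within each day and p-values adjusted over 8 ratios. Averaged over the 3 days, the log2 ratio of Col5a2 to Col3a1 was higher in EXP by 0.63 (adjusted p 0.00880), and that of Col5a1 to Col5a2 was lower (-0.45, adjusted p 0.0449). The other 6 ratios did not pass, with adjusted p from 0.253 to 0.450, among them Col1a1 over Col1a2 (-0.10) and Col3a1 over Col1a1 (0.24). The first result held without any 1 library, from 0.52 to 0.70, while the second lost the threshold in 14 of 22 such fits. Of 24 ratio tests on single days, the lowest adjusted p was 0.160, and with 3 libraries against 3 the smallest exact p on day 2 is 0.1.

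The log2 ratio of Col5a1 to Col5a2 was in CTRL 0.13 ± 0.12 on day 1, 0.09 ± 0.28 on day 2 and 0.09 ± 0.17 on day 4, and in EXP -0.39 ± 0.19, -0.86 ± 0.52 and 0.21 ± 0.40 (SD). CTRL and EXP libraries did not overlap on days 1 and 2 and did on day 4. The ratio of Col5a2 to Col3a1 was in CTRL -5.27 ± 0.08, -5.43 ± 0.14 and -5.38 ± 0.19, and in EXP -4.86 ± 0.49, -4.40 ± 0.58 and -4.93 ± 0.46. EXP means were higher on each day, but only the day 2 libraries did not overlap. The ratio of Col3a1 to Col1a1 was in CTRL 0.00 ± 0.16, -0.25 ± 0.07 and 0.09 ± 0.22, and in EXP -0.42 ± 0.37, 0.16 ± 0.17 and 0.81 ± 0.55. Its EXP mean was below CTRL on day 1 and above it on days 2 and 4, and EXP replicates 1 and 2 of day 4 had 2.45 and 1.90 Col3a1 counts for each Col1a1 count, against 1.15 in EXP replicate 3.

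The change of these ratios between days was tested after the data had been seen, by an exact permutation test over days with adjustment over 24 tests. The EXP effect on Col5a1 over Col1a1 was higher on day 2 than on day 1 by 1.03 (adjusted p 0.0245). It went from -0.54 on day 1 to 0.49 on day 2, and was 1.30 on day 4. The differences of day 4 from day 1 (1.835, adjusted p 0.0592) and from day 2 (0.81, adjusted p 0.483) did not pass. On day 4 EXP replicate 3 (-5.29) lay within the CTRL range (-5.41 to -4.98). Both arms took part in the difference between days 1 and 2. The mean log2 ratio fell from -5.135 to -5.588 in CTRL and rose from -5.67 to -5.097 in EXP. The corresponding differences for Col3a1 over Col1a1 (0.82, adjusted p 0.0592), Col3a1 over Col1a2 (0.66, adjusted p 0.0592) and Col5a3 over Col5a1 between days 1 and 4 (1.95, adjusted p 0.0592) did not pass.

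**Figure D4:**
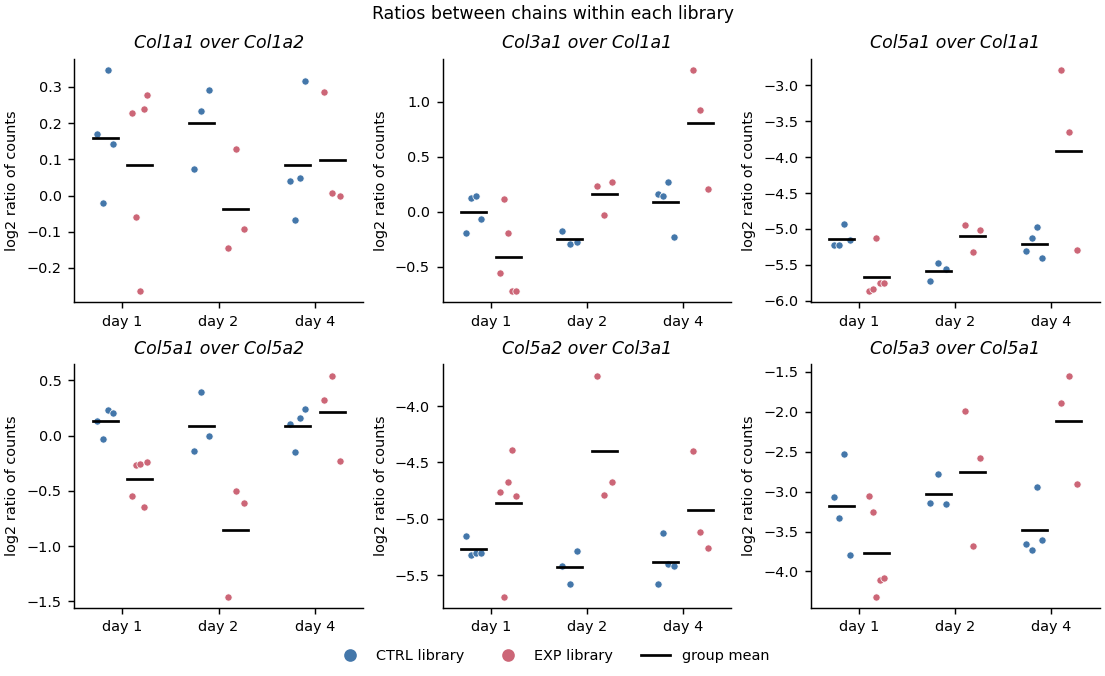
Log2 ratio of the counts of chain pairs (vertical axes) in CTRL and EXP libraries on days 1, 2 and 4 (horizontal axes), with 1 dot per library and a bar at the group mean. Col5a1 over Col5a2 is lower in EXP on days 1 and 2 with means of -0.39 and -0.86, and Col3a1 over Col1a1 has its highest EXP mean, 0.81, on day 4.

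Since the chains hold 7.22 to 31.1% of the counts, the values with TMM were set beside values on plain library totals. Mean TMM factors were 0.979, 0.837 and 0.866 in CTRL and 1.12, 1.16 and 1.09 in EXP on days 1, 2 and 4. On library totals without TMM the median log2 fold change of all tested genes was 0.21, 0.49 and 0.36 instead of 0.02, 0.02 and 0.03. The share of called genes that were higher in EXP was then 66.2%, 90.5% and 80.8%, against 48.7%, 57.5% and 57.0% with TMM. With the 7 chains taken out of the totals, again without TMM, the medians were 0.01, 0.19 and 0.18, and 48.6%, 73.3% and 69.6% of calls were higher. Taking the chains out of the totals removed nearly all of the shift on day 1 and part of it on days 2 and 4.

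The calls of the chains themselves moved less. Without TMM, Col1a2 on day 1 was at -0.74 (adjusted p 0.0503) and Col5a2 on day 2 at -0.10 (adjusted p 0.679), which were no longer called, and all other chain calls of the 3 days held. Relative to the median of all genes under that scaling, Col5a2 was lower by about the same amount as with TMM. On day 4 the values of Col5a1 (0.26), Col5a2 (0.11) and Col11a1 (0.18) without TMM were above 0, where TMM gave -0.08, -0.20 and -0.18, and none of them passed under either scaling.

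**Figure D5:**
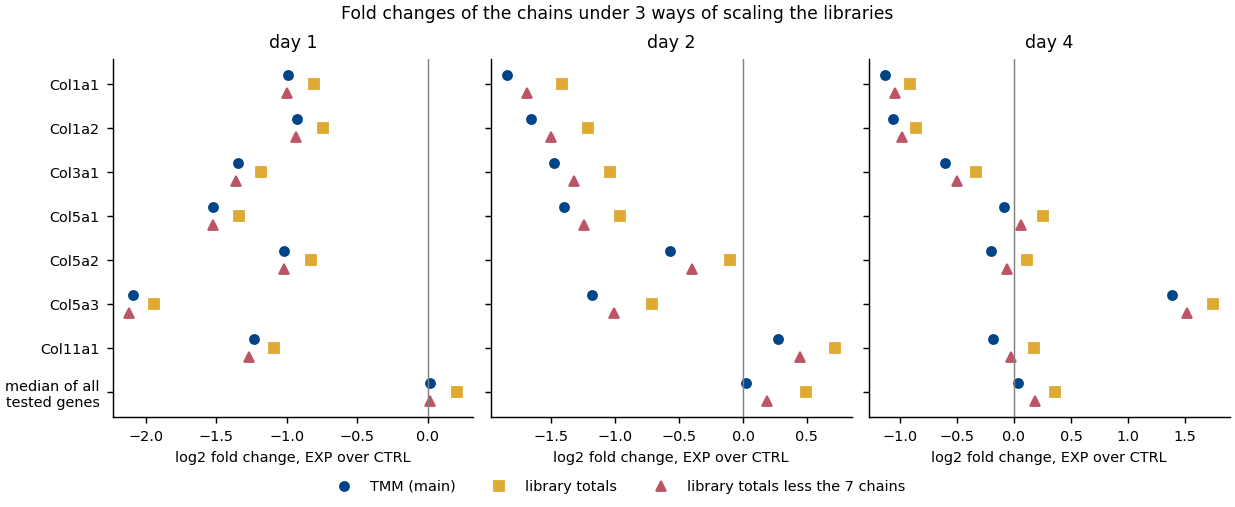
Log2 fold change of EXP over CTRL (horizontal axes) for each chain and for the median of all tested genes (vertical axis) on days 1, 2 and 4, under TMM, library totals, and library totals less the 7 chains. Every row lies further right on library totals than under TMM, by unequal amounts (on day 4 Col1a2 is at -0.86 and -1.06), and the median moves from 0.02 to 0.49 on day 2.

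The genes that act with the chains are given next, by role. Their counts stand against the shares of all tested genes called on days 1, 2 and 4, which were 13.9%, 7.72% and 12.8% for higher and 14.7%, 5.71% and 9.66% for lower in EXP. Of the calls below, over 89 tested genes on 3 days, 14 were lost and 21 gained on library totals without TMM, where called genes kept their direction, as they did with the 7 chains taken out of the totals. Lost there were, among the genes named below, P4ha1 (-0.29, adjusted p 0.1997), Serpinh1 (-0.95, adjusted p 0.0903) and Loxl2 (-0.63, adjusted p 0.128) on day 2, and Creb3l1 (-0.44, adjusted p 0.165) and Tgfb3 (-0.46, adjusted p 0.109) on day 4. Calls gained there were, among the same genes, Fn1 (1.31, adjusted p 0.0120) and Itga1 (1.19, adjusted p 0.0469) on day 4 and Ets1 (0.82, adjusted p 0.0310) on day 2. The balance of some lists moved too, under a scaling whose day 2 median over all genes was 0.49. On day 2, procollagen modification had 4 higher and 2 lower (median -0.02), against 2 and 4 with TMM. Fibril surface and assembly had 6 higher and 0 lower, against 3 and 1. On day 4, regulators of collagen transcription had 3 lower, against 6. The 8 lower of procollagen modification on day 1 stayed.

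Of the other fibrillar chains, Col2a1, Col11a2, Col24a1 and Col27a1, 1 was lower on day 1 and 1 was higher on each of days 2 and 4. Col24a1, a minor fibrillar chain, fell on day 1 from 1.19 ± 0.638 to 0.135 ± 0.259 CPM (-3.09 on the log2 scale, SE 1.06, adjusted p 0.0337, edgeR). That EXP mean is near the detection floor and smaller than its SD, so the size of the fall is uncertain. Col27a1, another minor chain, rose on day 2 from 0.372 ± 0.236 to 6.23 ± 1.46 CPM (4.05, SE 0.75, adjusted p 0.00172) and on day 4 from 1.55 ± 0.275 to 10.9 ± 7.71 CPM (2.81, SE 0.60, adjusted p 0.00361).

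Of 17 genes for procollagen modification and chaperones, 8 were lower on day 1, 4 lower and 2 higher on day 2, and 3 lower and 2 higher on day 4. The medians were -0.91, -0.49 and -0.32, against 0.02 to 0.03 over all genes. P4ha2, a catalytic subunit of the prolyl hydroxylase that stabilizes the triple helix, fell from 298 ± 27.6 to 61.6 ± 11.5 CPM on day 1 (-2.27, SE 0.21, adjusted p 1.47e-06, edgeR). It was also lower on day 2 (-1.79, adjusted p 1.83e-04) and day 4 (-1.01, adjusted p 0.00572). P4ha1, its counterpart, was lower on day 1 (-0.91) and day 2 (-0.77) and did not pass on day 4 (-0.32, adjusted p 0.150). Plod2, which hydroxylates lysines used for stable cross-links, rose on day 4 from 1.35 ± 0.335 to 36.3 ± 27.3 CPM (4.75, SE 0.59, adjusted p 1.28e-04) and on day 2 by 3.63 (adjusted p 0.00278). Serpinh1, the collagen chaperone HSP47, was named after its values were seen, and it was lower on day 1 (-1.83, adjusted p 2.95e-04) and day 2 (-1.41, adjusted p 0.0208).

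Of 6 tested genes for procollagen secretion, 4, 2 and 2 were lower on days 1, 2 and 4, against 14.7%, 5.71% and 9.66% of all genes. Sec24d, a coat protein of vesicles that leave the endoplasmic reticulum, was lower on all 3 days (-0.98, -0.99 and -0.82, adjusted p 2.46e-05, 6.63e-04 and 0.00138, edgeR). Creb3l1, a membrane-bound transcription factor of the secretory pathway, was too (-1.41, -1.31 and -0.75, adjusted p 9.37e-05, 0.00350 and 0.0376). Sec23a, another coat protein, was lower on day 1 (-1.14, adjusted p 1.10e-04) and had an EXP effect that changed with the day (adjusted p 0.0365). Ctage5 was not tested.

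Of 8 genes for propeptide processing, 4 were lower and 1 higher on day 1, 1 lower and 2 higher on day 2, and 2 lower on day 4. Of all genes, 14.7%, 5.71% and 9.66% were lower and 13.9%, 7.72% and 12.8% higher, so a count of 1 of 8 is near these shares. Adamts14, a protease that removes the amino-terminal propeptide, was at 29.4 ± 16.1 CPM in CTRL and 4.13 ± 1.58 CPM in EXP on day 1 (-2.83, SE 0.36, adjusted p 2.00e-05, edgeR) and did not pass on day 4 (0.30, adjusted p 0.612). Pcolce, which enhances removal of the carboxy-terminal propeptide, was lower on day 1 (-0.81, adjusted p 0.00637). Pcolce2, a related enhancer, was lower on all 3 days (-1.20, -1.36 and -1.16, adjusted p 0.00655, 0.0224 and 0.0279). Furin, a convertase that activates such proteases, rose on day 1 from 20.1 ± 3.12 to 45.7 ± 11.7 CPM (1.19, adjusted p 4.68e-04) and on day 2 (1.27, adjusted p 0.00373).

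Of the 6 cross-linking genes, 1 was higher and 1 lower on day 1, 3 higher and 1 lower on day 2, and 4 higher and 1 lower on day 4. Their medians were 0.09, 1.19 and 1.32. Loxl1, a lysyl oxidase, was at 105 ± 7.45 CPM in CTRL and 366 ± 187 CPM in EXP on day 4 (1.80, SE 0.27, adjusted p 3.20e-04, edgeR) and also rose on day 2 (1.56, adjusted p 0.00201). Loxl3, of the same family, rose from 9.32 ± 2.75 to 169 ± 154 CPM on day 4 (4.18, SE 0.70, adjusted p 8.34e-04). Loxl2 was lower on day 1 (-1.33, adjusted p 4.26e-04) and day 2 (-1.09, adjusted p 0.0191) and did not pass on day 4 (0.33). Tgm2, a transglutaminase, rose on all 3 days (1.22, 2.02 and 1.44, adjusted p 0.0319, 0.0134 and 0.0296). For 5 of the 6 genes the EXP effect changed with the day, against 8.82% of all tested genes.

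Of 14 tested genes of the fibril surface and assembly, 7 were lower on day 1, 1 lower and 3 higher on day 2, and 2 lower and 3 higher on day 4. The shares of all genes were 14.7%, 5.71% and 9.66% lower and 13.9%, 7.72% and 12.8% higher, and 1 lower of 14 on day 2 is near its share. Comp was not tested. Col12a1, a chain that binds along fibrils, was at 7.32 ± 0.801 CPM in CTRL and 333 ± 119 CPM in EXP on day 2 (5.50, SE 0.82, adjusted p 4.58e-04, edgeR), and rose on day 4 as well (5.26, adjusted p 2.44e-04). Fn1, fibronectin, on which fibrils are laid down, fell on day 1 from 1187 ± 326 to 307 ± 69.97 CPM (-1.95, adjusted p 2.63e-04) and did not pass on day 4 (0.95, adjusted p 0.0710). Postn, a matricellular protein that binds collagen, fell on day 1 (-1.42, adjusted p 0.00914) and rose on day 2 (2.58, adjusted p 0.00238) and day 4 (1.44, adjusted p 0.0236).

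Of 9 genes for collagen degradation and uptake, 3 were higher and 3 lower on day 1, while 3 rose on day 2, and on day 4 there were 4 higher and 1 lower, where 13.9%, 7.72% and 12.8% of all genes were higher and 14.7%, 5.71% and 9.66% lower. Mmp13, a collagenase that cuts fibrillar collagen, was at 0.846 ± 0.659, 0.813 ± 0.481 and 1.76 ± 0.633 CPM in CTRL and at 30.6 ± 14.6, 158 ± 90.5 and 181 ± 209 CPM in EXP on days 1, 2 and 4. The log2 fold changes were 5.16, 7.58 and 6.67 (adjusted p 2.18e-04, 3.25e-04 and 2.42e-04, edgeR). Mmp3, stromelysin, rose on all 3 days (1.90, 1.57 and 1.20, adjusted p 9.53e-05, 0.00519 and 0.0111). Mmp8, another collagenase, rose on day 1 (1.34, adjusted p 0.0363) and day 2 (3.13, adjusted p 0.00217). Of 7 collagen receptors, 1 was called on any day: Itga1, an integrin subunit, rose on day 2 from 6.002 ± 3.25 to 34.1 ± 14.6 CPM (2.51, adjusted p 0.00181).

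Of 18 regulators of collagen transcription, 3 were higher and 1 lower on day 1, 3 higher and 2 lower on day 2, and 1 higher and 6 lower on day 4. The shares of all genes were 13.9%, 7.72% and 12.8% higher and 14.7%, 5.71% and 9.66% lower, so the 3 higher and 1 lower of day 1 are near or under them. Tgfb3, a ligand that raises collagen expression, was lower on day 1 (-1.26, adjusted p 2.55e-05, edgeR), higher on day 2 (0.81, adjusted p 0.0125) and lower on day 4 (-0.78, adjusted p 0.00816). Larp6, which binds the RNA of type I chains, fell on day 4 from 75.8 ± 19.4 to 22.4 ± 15.2 CPM (-1.76, SE 0.34, adjusted p 0.00208). Ets1, a transcription factor, rose on day 1 (0.97, adjusted p 0.00216).

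The 5 genes of at least 5 CPM whose log2 CPM was most like the mean of Col1a1, Col1a2 and Col3a1 over the 22 libraries, among 9814 genes, were Ctsf, Ndufa4l2, Colq, Sulf2 and Kazald1. Ctsf, a lysosomal protease, had a Pearson correlation of 0.983, and 0.956 after group means were removed. The other 4 had correlations of 0.958 to 0.961, and 0.875 to 0.920 after group means were removed. All values come from the same libraries and share their scaling, so these are descriptions. Ctsf was lower in EXP on all 3 days (-1.28, -1.70 and -1.11, adjusted p 0.00552, 0.00855 and 0.0399, edgeR), and Sulf2, an enzyme that edits heparan sulfate, was too (-1.80, -2.05 and -1.76, adjusted p 0.00284, 0.0128 and 0.0158).

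Markers of the sorted cells moved in both directions. The summed level of 6 fibroblast markers (Pdgfra, Cd34, Dpt, Lum, Thy1 and Pdgfrb) was 6269 to 8776 CPM in CTRL and 4912 to 6116 in EXP on day 1, 9939 to 10460 and 5356 to 8574 on day 2, and 10900 to 15390 and 3124 to 7937 on day 4. Most of this sum was Lum, a proteoglycan, which was called lower on day 4 (-1.67, adjusted p 0.00349, edgeR) and missed the threshold on days 1 and 2 (-0.60 and -0.70, adjusted p 0.137 and 0.218). Cd34, a marker of the gate, was lower on days 1 and 2 (-1.74 and -2.07, adjusted p 8.10e-04 and 0.00379) and missed the threshold on day 4 (-0.93, adjusted p 0.0948). Pdgfra, the other marker of the gate, went the other way and was higher on all 3 days (0.84, 1.71 and 0.79, adjusted p 0.0154, 0.00134 and 0.0456). Dpt, Thy1 and Pdgfrb passed on no day, with adjusted p from 0.253 to 0.951.

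Some markers of other cells moved as well. The sum of 5 adipocyte markers (Adipoq, Plin1, Lep, Cidec and Fabp4) was 1.44 to 24.7 CPM in CTRL and 0.835 to 9.53 CPM in EXP on day 1, and 0.249 to 1.03 CPM in CTRL and 6.84 to 62.2 CPM in EXP on day 2, highest in EXP replicate 1, the library with the lowest Col1a1. On day 4 it was 0.335 to 1.69 CPM in CTRL and 42.5, 97.2 and 282 CPM in EXP replicates 1, 2 and 3. Col1a1 in those EXP replicates was at 17400, 38250 and 82710 CPM, so there the sum was highest where Col1a1 was highest. All 4 tested adipocyte markers were called higher on day 4, and 2 (Cidec and Fabp4) on day 2. Adipoq was at 0 in 8 libraries, Plin1 in 12 and Lep in 17. The immune sum was 43.2 to 90.6 CPM in CTRL and 36.3 to 53.4 in EXP on day 1, 114 to 165 and 65.5 to 91.0 on day 2, and 107 to 149 and 68.8 to 141 on day 4. By group means most of it was 1 gene, Csf1r, at 136 CPM in CTRL on day 2 and 120 CPM on day 4. Ptprc and Itgam were at most 0.243 and 0.231 CPM in any library. Within that list Cd68 was higher on days 1 and 2 (1.36 and 1.86, adjusted p 0.0208 and 0.0217, edgeR), Csf1r lower on day 1 (-1.12, adjusted p 0.0174) and Cd3e higher on day 4 (2.69, adjusted p 0.0115). The endothelial sum was 1.11 to 4.17 and 0.839 to 3.04 CPM on day 1, 0.0449 to 0.574 and 0.796 to 2.18 CPM on day 2, and 0.168 to 2.83 and 2.28 to 10.7 CPM on day 4 in CTRL and EXP, and Kdr was higher on days 2 and 4 (3.71 and 3.11) and Emcn on day 4 (5.09). The CTRL means of Kdr on day 2 (0.0696 CPM) and Emcn on day 4 (0.0107 CPM) were below the detection floor. The size of those 2 changes is therefore uncertain.

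In CTRL and EXP, the pericyte and smooth muscle sum was 10.4 to 45.8 and 9.69 to 30.6 CPM on day 1, 12.4 to 21.4 and 19.6 to 37.97 on day 2, and 22.3 to 34.7 and 31.0 to 46.1 on day 4. Acta2, a smooth muscle actin, was higher on days 2 and 4 (2.73 and 2.22, adjusted p 0.0255 and 0.0265, edgeR), while Cspg4 was lower on day 1 (-1.20, adjusted p 0.00713) and Des on day 2 (-2.58, adjusted p 0.0217). The keratinocyte sum was 7.29 to 41.3 and 2.17 to 13.9 CPM on day 1, 4.48 to 32.4 and 4.84 to 5.15 on day 2, and 6.40 to 20.97 and 3.27 to 16.8 on day 4, with Krt10 lower on day 1 (-2.54, adjusted p 1.28e-04). The cartilage sum was 6.78 to 22.9 and 5.86 to 16.1 CPM on day 1, 3.78 to 4.67 and 6.10 to 13.9 on day 2, and 3.95 to 12.4 and 18.2 to 58.7 on day 4, where Sox9 was higher (2.36, adjusted p 0.00389). The skeletal muscle sum was at most 3.19 CPM in any library, with Acta1 higher on day 4 (5.23, adjusted p 0.00396) and Tnnt3 lower on day 2 (-2.79, adjusted p 0.0202). The CTRL mean of Acta1 on day 4 (0.0209 CPM) was below the detection floor. The EXP mean of Tnnt3 on day 2 (0.147 CPM) was near it, so the size of both changes is uncertain. The melanocyte and Schwann sum was 3.65 to 16.2 CPM in CTRL and 1.45 to 36.7 CPM in EXP over the 3 days, and the adjusted p of its 3 tested genes ran from 0.223 to 1. The part of these cells in the levels of the chains was not tested.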

How the data were processed

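RNA of 22 libraries was measured. The authors deposited 1 table of raw gene counts, whole numbers with no normalization. Per the submitters' processing notes, Trimmomatic and the mm39 build were used, and the aligner, counter, annotation and use of strand are not given in the sources used here. GENCODE M21, of the GRCm38 build, gave names to 52081 of 55414 genes, and transcript lengths (longest coding transcript) and exon overlaps. Counts were filtered with filterByExpr (minimum count 10), scaled by TMM and fitted over 6 day-by-arm groups with 16 residual degrees of freedom (edgeR 4.0.16, R 4.3.3, robust quasi-likelihood test), at an adjusted p threshold of 0.05. Log2 CPM used a prior count of 2. The SE of an edgeR log2 fold change is its absolute value divided by the square root of the test's F statistic. The scripts were tested on simulated data. DESeq2 1.42.0 and limma 3.58.1 were alternatives, as were other scalings, filters, a replicate block, the division of libraries as a covariate and leaving out each library. Members and lists were chosen with earlier results of these data known. Named genes were up to 3 called genes per list with the smallest p over the 3 days, any other called on all 3 days in 1 direction, and the 5 most like the type I and III chains. The difference of ratio effects between days was added after the data had been seen.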

Additional observations from a re-analysis of the deposited data

Results flagged for a closer look

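In 5 of 48 groups of values (the chain levels, their share and their ratios, in the groups of 4 or 5 libraries), 1 library lay far from the others, where chance gives about 2.4. The percent of counts from the 7 chains was 21.03 in CTRL replicate 2 of day 4 and 28.2 to 28.5 in the other CTRL libraries of that day. The log2 ratio of Col5a2 to Col3a1 was -5.15 in CTRL replicate 1 of day 1, and at most -5.30 in the others. That of Col3a1 to Col1a2 was 0.0599 in EXP replicate 2 of day 1, against -0.48 to -0.33. That of Col5a1 to Col1a1 was -5.13 in EXP replicate 3 of day 1, against -5.87 to -5.76. That of Col5a3 to Col5a1 was -2.94 in CTRL replicate 3 of day 4, against -3.73 to -3.605 in the others.

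The EXP effect differed between days for the type V chains, with an adjusted p of 0.0128 for Col5a1, 0.0423 for Col5a2 and 0.00167 for Col5a3 (edgeR). The EXP effect on the log2 ratio of Col5a1 to Col1a1 was higher on day 2 than on day 1 by 1.03.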

How the results depend on the processing

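No direction of a called value reversed in any alternative computed. The day 4 calls of the chains depended most on the fit. Instead of 1 chain lower on day 4, 2 were called with DESeq2, with limma voom and among genes of at least 10 CPM. The count was 0 with all genes of at least 1 count, with libraries of the day only, with the replicate block, with the division of libraries as a covariate and on its low side. The 1 chain called higher on day 4 became 0 with libraries of the day only and with the replicate block. On the high side of the division 3 chains were lower on day 1, instead of 6.

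Over all genes, calls on day 2 went from 2359 to 4631 on library totals without TMM and to 4620 with limma voom. Calls on day 1 went from 5017 to 2257 on the high side of the division. Calls on day 4 went from 3943 to 1128 with libraries of the day only and to 1084 on the low side. These fits tested 16447, 15845 and 19460 genes in that order, against 17554 in the main fit. Genes with a day-dependent effect went from 1549 to 2606 with DESeq2 and 2352 with limma voom. Genes that changed over the days in EXP went from 2502 of 17554 tested to 1569 of 7820 among genes of at least 10 CPM. The latter is a larger share of the genes tested. Genes that changed over the days in CTRL went from 51 to 163 without TMM and to 123 on totals without the chains. Among genes of at least 10 CPM, 118 of 7820 changed in CTRL. The CTRL count was 519 with DESeq2, 631 with limma voom and 29 with the division as a covariate.

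Leaving out 1 library at a time gave 4 to 6 chains lower on day 1, 1 to 5 on day 2 and 0 to 2 on day 4, and 0 to 1 higher on day 4. Genes called ran from 4024 to 4830 on day 1, 891 to 2177 on day 2 and 1633 to 5011 on day 4. They ran from 5 to 92 over the days in CTRL, 1367 to 3415 over the days in EXP, and 898 to 2572 for a day-dependent effect. The ratio of Col5a1 to Col5a2 ran from -0.51 to -0.35.

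Replicate numbers are shared between CTRL and EXP. Of 10 pairs with the same number and day, 3 had a correlation of deviations over 0.1, with r from -0.07 to 0.16. On day 4 r was 0.08, 0.15 and 0.11 for replicates 1, 2 and 3. Pairs of unlike number were not computed, so these values cannot decide whether the numbers pair the libraries. A fit with the number within each day as a block left 7 residual degrees of freedom and 401 genes with a day-dependent effect. Under it, adjusted p was 0.0550 for Col1a1 and 0.106 for Col1a2 on day 1, 0.102 for Col5a2 on day 2, and 0.0833 for Col1a1 and 0.143 for Col5a3 on day 4. For the day-dependent effect it was 0.0780, 0.195 and 0.0702 for Col5a1, Col5a2 and Col5a3. Changes over the days within an arm were not run with this block, which holds the days. The causes of these differences were not tested.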
